A study of Mus musculus with 12 samples.

Results

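Of the 24831 RbFox1 eCLIP peaks listed on the human genome (hg38), 7314 (29.5%) lay in small groups of 2 or 3 peaks. These peaks are the subject of the report. Peaks were sorted along each chromosome and strand and joined into a group while the next peak started no more than 500 nt after the end of the last, and the peaks of every group holding exactly 2 or 3 were kept. The rule gave 3083 groups, of which 1935 were pairs (3870 peaks) and 1148 were triples (3444 peaks). The other peaks of the list were 4566 single peaks, 10566 peaks in 1949 groups of 4 to 9, and 2385 peaks in 189 groups of 10 or more. The members were therefore chosen by the positions of peaks called in the contrast that also gave their enrichments. All values that follow are descriptions of 1 list, with no test and no replicate error.

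RbFox proteins are splicing regulators that bind pre-mRNA through a single RNA recognition motif, with high affinity for (U)GCAUG. Many of their binding sites lie in introns, at times far from the exon whose inclusion they change, and they act there together with other RNA binding proteins in a large assembly of splicing regulators (LASR). In eCLIP, proteins are crosslinked to RNA by ultraviolet light, the RNA is trimmed with RNase and the protein of interest is immunoprecipitated, so that the ends and the pile-up of the sequenced fragments mark where it was bound. A peak caller can cut a broad stretch of signal into several peaks that touch end to end, and so the number of peaks in a group is not a number of RbFox1 molecules or of motifs.

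The libraries came from T-REx-293 cells, a human embryonic kidney (HEK293) line, in which doxycycline switches on a knocked-in RbFox1. All cells also carried a TrkB-BAC minigene, built from a bacterial artificial chromosome with the mouse Ntrk2 (TrkB) region, that undergoes alternative splicing. The list compares 2 immunoprecipitated libraries of this line given doxycycline (+Dox; labelled 0.5 mg/ml, a unit that differs from that in the study's figure legends, for 48 h) with 2 untreated libraries (No Dox) of the same single clone, which had the unmutated minigene. A further 2 +Dox libraries of a clone lacking Cluster 1 and Cluster 2 of the minigene were not part of this comparison. The same holds for 6 input libraries, whose condition the labels do not settle. Whether inputs served to choose the listed peaks is not known. Each peak has 1 log2 fold enrichment, of +Dox over No Dox immunoprecipitate, and 1 −log10 p-value, both made by the authors after the replicates were merged. The list holds 0 columns for single libraries, so depth per library and the spread between replicates are unknown. Neither a human annotation nor a human sequence was used here, and positions are given in place of gene names.

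The members covered most of the range of enrichment in the list, and like the list as a whole they were most frequent near its floor. Their log2 fold enrichment had a median of 3.58 (an 11.9-fold enrichment), with quartiles of 3.28 and 3.98. The lowest member lay at the floor of the list, at 3, and the highest at 6.32. A total of 3188 members (43.6%) lay between 3 and 3.5, as did 37.4% of the whole list, and 2348 members (32.1%) lay between 3.5 and 4. A log2 fold enrichment of 5 was reached by 152 members (2.08%) and by 4.33% of the list. Their −log10 p-values had a median of 7.86 with quartiles of 5.13 and 12.5, and their widths a median of 88 nt with quartiles of 68 and 112 nt. The plus strand held 3794 members (51.9%) and the minus strand 3520.

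**Figure D1:**
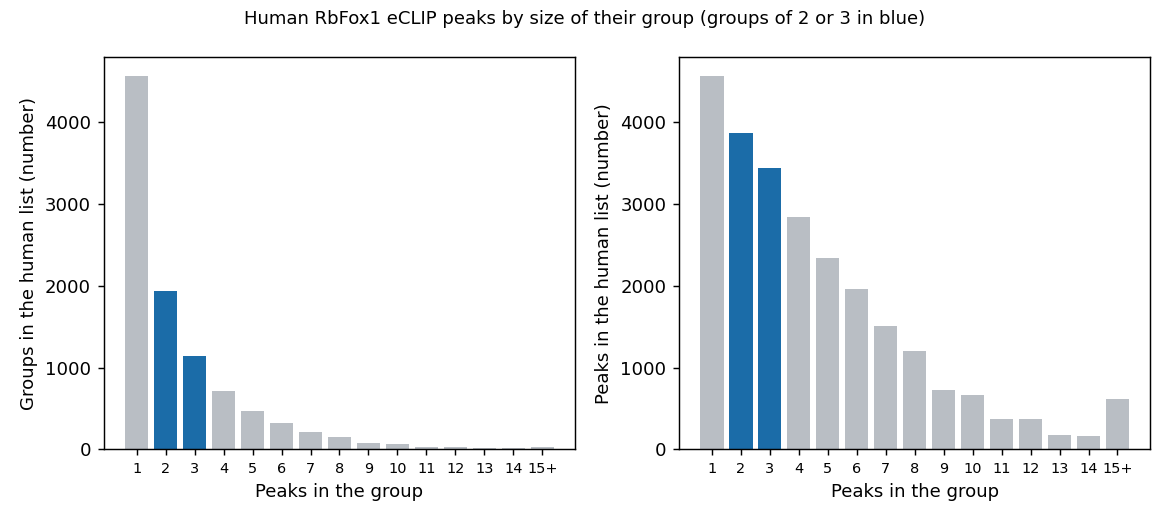
Number of groups (left) and of peaks (right) in the human RbFox1 eCLIP list by the number of peaks in a group, with groups of 2 or 3 in blue. Pairs (1935) and triples (1148) were, after the 4566 single peaks, the most frequent group sizes.

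By all 3 measures the members lay between single peaks and larger groups. The median log2 fold enrichment was 3.45 in single peaks, 3.54 in pairs, 3.63 in triples, 3.70 in groups of 4, 3.80 over groups of 4 to 9 and 4.08 in groups of 10 or more. The quartiles of the members overlapped widely with those of single peaks (3.20 and 3.80) and of groups of 4 to 9 (3.42 and 4.27). The median −log10 p-value was 5.62 in single peaks, 7.25 in pairs, 8.51 in triples, 13.1 in groups of 4 to 9 and 33.3 in groups of 10 or more. Width ran the other way, with medians of 98 nt in single peaks, 90 nt in pairs, 85 nt in triples, 76 nt in groups of 4 to 9 and 57 nt in the largest groups. A single peak therefore tended to be wider and less enriched than a member of a pair or triple, with much overlap between the classes.

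**Figure D2:**
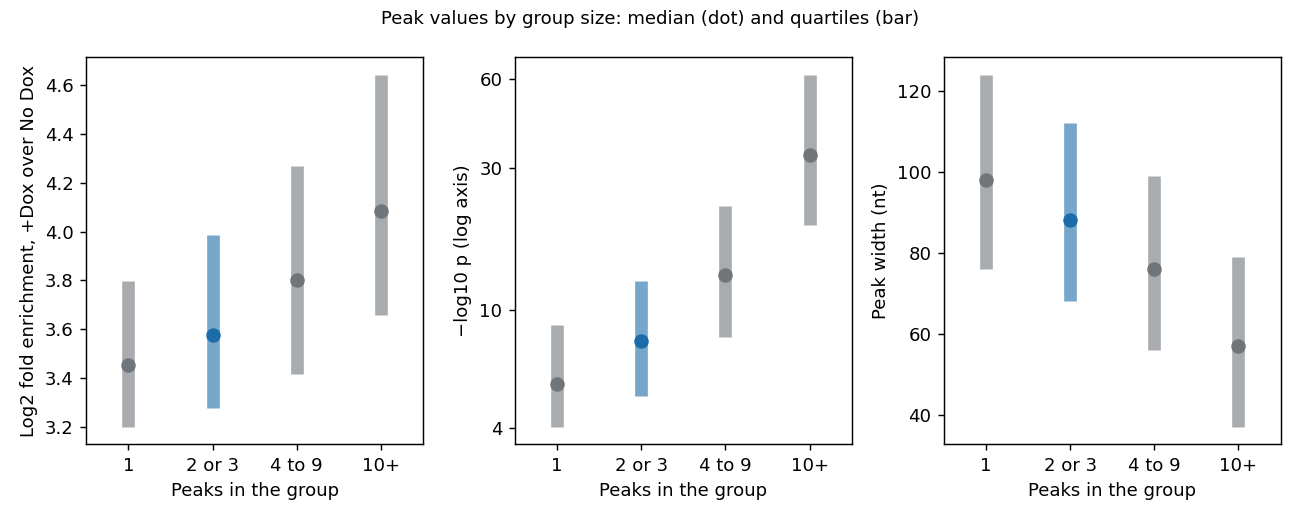
Log2 fold enrichment of +Dox over No Dox, −log10 p (log axis) and peak width in nt for single peaks, groups of 2 or 3 (blue), groups of 4 to 9 and groups of 10 or more. Dots are medians and bars run between the quartiles over peaks, and the members sit between single peaks and larger groups in all 3 panels.

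Of the members, those with an enrichment of 4 or more (log2) and also a p-value no higher than 1e-05, the stricter threshold used here, numbered 1522 (20.8%). In the whole list 29% of peaks passed it. The share was 18.01% in pairs and 24.0% in triples, against 11.2% of single peaks, 36.6% of peaks in groups of 4 to 9 and 54.8% in groups of 10 or more. The members' share thus lay below the background of the list, which the larger groups raise. The share of each enrichment class that members made up also fell towards the top of the scale. Members were 34.3% of all peaks between 3 and 3.5, but 4 members made up 8.89% of the peaks between 6 and 6.5, and no member was found above 6.5. Single peaks also ended below 6.5, at 6.33, and only 0.0443% of the list lay between 6.5 and 7.

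The rule joined peaks up to 500 nt apart, and most gaps were far shorter than that limit. The 3083 groups held 4231 gaps between neighbouring peaks, with a median of 37 nt and an upper quartile of 126 nt. In 1277 gaps (30.2%) the peaks abutted with no base between them, and in 0 gaps did they overlap. In 2970 gaps (70.2%) the distance was at most 100 nt, while 632 gaps (14.9%) were longer than 200 nt. Abutting peaks made up 40.6% of the gaps in groups of 4 to 9, whose median gap was 10 nt, and 58.9% of those in groups of 10 or more.

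**Figure D3:**
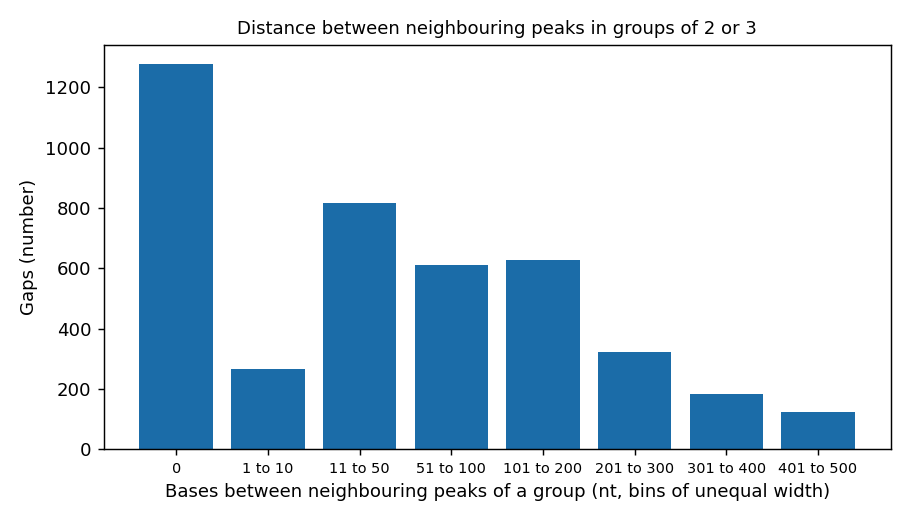
Number of gaps between neighbouring peaks of groups of 2 or 3 by the bases between them (nt, bins of unequal width). Abutting peaks (0 nt, 1277 gaps) were the fullest bin, and 124 gaps were longer than 400 nt.

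From the first base of the first peak to the last base of the last, a pair spanned a median of 253 nt and a triple 390 nt, and peaks covered a median of 81.9% of the span of a pair and 72.0% of that of a triple. In 684 groups (22.2%, Wilson 95% confidence interval 20.8 to 23.7%, which covers counting error only) every peak abutted the next, so that the called intervals formed 1 unbroken stretch. This was so for 559 pairs (28.9%) and 125 triples (10.9%). In 1931 groups (62.6%) no peaks abutted, and 468 triples had 1 abutting and 1 spaced gap. The widest group, a triple at chr3:30632218-30633347 on the plus strand, spanned 1130 nt and had enrichments of 4.44, 3.92 and 3.27 (log2) from 5′ to 3′ with gaps of 402 and 426 nt. The narrowest, an abutting pair at chr19:47614695-47614729 on the plus strand, spanned 35 nt and had enrichments of 3.24 and 3.19.

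Within a group the lowest and the highest peak differ by construction, and more so with 3 values than with 2. The least enriched peak of a group had a median log2 fold enrichment of 3.31, and the most enriched one 3.78 in pairs and 4.04 in triples. The difference between the highest and the lowest peak of a group had a median of 0.36 in pairs and 0.62 in triples, and was 1 or more, at least a doubling, in 436 groups (14.1%). A log2 fold enrichment of 4 was reached by 1778 members (24.3%) and by 31.4% of the whole list. At least 1 peak reached it in 1288 groups (41.8%) and every peak in 231 (7.49%). The remaining 1795 groups (58.2%) had no peak at 4. The largest difference was in the pair at chr1:222631735-222632103 on the plus strand, where peaks of 5.63 and 3.04 lay 155 nt apart. The next largest was in the triple at chr21:32676583-32677382 on the minus strand, where enrichment went from 5.62 through 3.69 to 3.10 in the 5′ to 3′ direction.

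Peaks that shared a group were only loosely alike in enrichment. The median difference within a pair, 0.36 with quartiles of 0.16 and 0.64, equalled that between 2196 neighbouring single peaks on a strand, also 0.36, which lay a median of 83903 nt apart. The enrichments of all peaks in pairs were more spread, with quartiles of 3.24 and 3.93, than those of all single peaks (3.20 and 3.80). The equal differences are therefore not like for like. Across pairs Pearson's r between the log2 fold enrichments of the 2 peaks was 0.305 (n = 1935 pairs), and across neighbouring single peaks it was 0.0968 (n = 2196). The value was 0.449 over the 559 abutting pairs and 0.158 over the 318 pairs more than 200 nt apart. These are correlations across regions that share libraries, depth and a threshold at 3, and regions are not independent replicates. Whether abutting peaks shared reads cannot be seen from the list.

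The same ordering by distance appeared in how often both peaks of a pair were high. Both peaks reached a log2 fold enrichment of 4 in 70 of 559 abutting pairs (12.5%), in 42 of 464 pairs with 1 to 50 nt between them (9.05%) and in 15 of 283 pairs 51 to 100 nt apart (5.30%). Beyond that the share was level, at 15 of 311 pairs (4.82%) up to 200 nt apart and 15 of 318 (4.72%) beyond 200 nt. Over all 1935 pairs it was 157 (8.11%). Counted singly, 840 of the 3870 peaks in pairs (21.7%) reached 4, as did 31.4% of the whole list. The share of pairs with both peaks at 4 that unrelated peaks would give was not calculated. The median −log10 p of the peaks also differed, at 8.79 in abutting pairs and between 6.25 and 7.48 in the other classes. The median of the higher peak changed little across these classes, from 3.73 in the most distant pairs to 3.85 in pairs 1 to 50 nt apart, and the median of the lower peak ran between 3.26 and 3.35.

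The place of a peak within its group made little difference. The 5′ peak was the more enriched in 928 pairs (48.0%) and the 3′ peak in 1007 (52.0%), with median enrichments of 3.52 and 3.56 (log2). In triples the middle peak was the most enriched in 413 groups (36.0%), the 5′ peak in 352 (30.7%) and the 3′ peak in 383 (33.4%), and the medians from 5′ to 3′ were 3.60, 3.67 and 3.62. All of these differences in medians were small beside the quartile range of the members.

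Among the triples, the 5 whose least enriched peak was highest all had 3 peaks near or above 5 on the log2 scale, and came from different chromosomes. The triple at chr1:7763834-7764178 on the plus strand had enrichments of 5.70, 5.71 and 5.25 from 5′ to 3′, the first pair of peaks abutting and the last 5 nt further on. The triple at chr11:113239117-113239395 on the plus strand held the most enriched of all members, its middle peak at 6.32 (79.7-fold), between peaks of 5.22 and 5.40. This triple lay 1982 nt from a group of 8 peaks. At chr7:154930511-154931286 on the plus strand, by contrast, peaks of 5.29, 5.06 and 5.66 were 205 and 127 nt apart, and the nearest other group on the strand was 715274 nt away. The triple at chr13:51953892-51954340 on the minus strand was the most even, with 5.00, 5.13 and 5.13 at gaps of 43 and 43 nt. At chr10:13599979-13600157 on the plus strand a peak of only 10 nt at 4.98 stood between abutting peaks of 5.46 and 5.71. Their −log10 p-values ran from 8.05 to 46.3, so the groups with the highest enrichment were not those with the highest −log10 p.

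The 5 pairs chosen in the same way had both peaks above 5. The highest was at chr2:203374951-203375238 on the plus strand, with enrichments of 5.39 and 5.79 (log2) at 7 nt from each other and −log10 p-values of 59.2 and 69.9. The pairs at chr4:113500535-113500667 (5.21 and 5.63, minus strand), chr8:61668044-61668183 (5.35 and 5.13, minus strand) and chr7:65719240-65719412 (5.11 and 5.12, minus strand) each abutted. The last of these differed by only 0.01 on the log2 scale, while its −log10 p-values were 31.0 and 12.5. The pair at chr7:55062501-55062897 on the plus strand was the only spaced one of the 5 beyond 7 nt, with 5.12 and 5.42 at 144 nt.

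**Figure D4:**
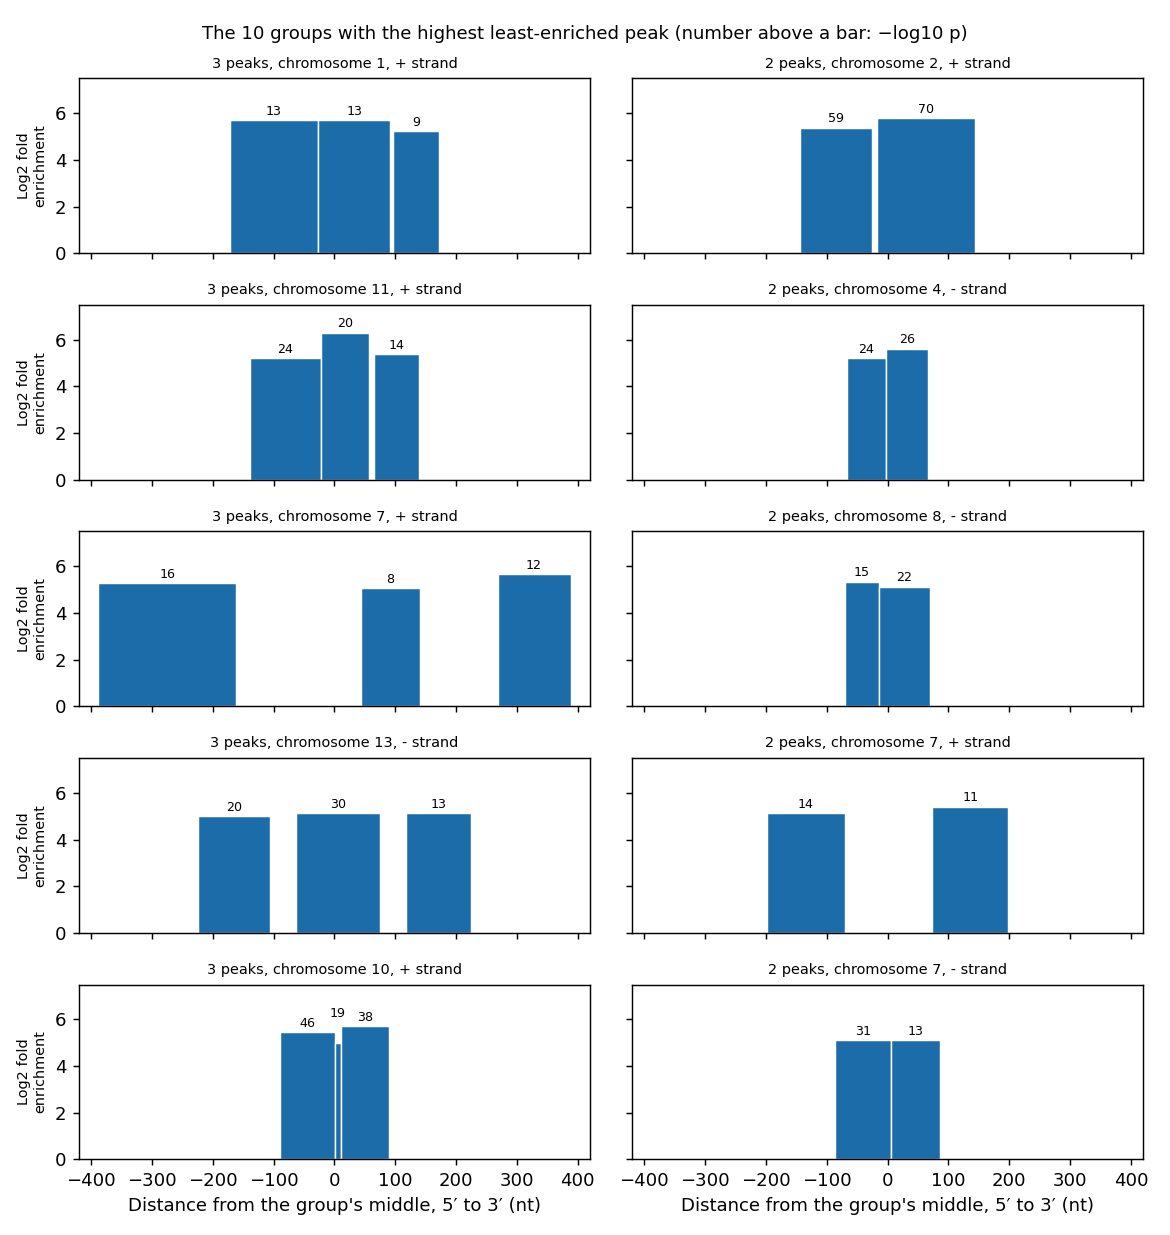
The 5 triples (left) and 5 pairs (right) whose least enriched peak was highest, each peak drawn to scale as a bar by its distance from the middle of the group (nt, 5′ to 3′) and its log2 fold enrichment, with its −log10 p above the bar. Every bar is near or above 5, and 1 triple and 1 pair on the plus strand of chromosome 7 are spaced by more than 100 nt.

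The members at the highest −log10 p-value of the list were not the most enriched ones. The p-values of the list end at a −log10 of 400, which 31 members (0.424%) and 2.05% of the whole list held. Below it the next member was at 87.0. These 31 members lay in 19 groups on 12 chromosomes, and their log2 fold enrichment ran only from 3.04 to 4.41 with a median of 3.49, below 4 in 27 of them. In 8 of the groups every peak was at 400. An example is the triple at chr17:81511614-81511750 on the minus strand, whose abutting peaks had enrichments of 3.97, 4.19 and 3.32. In other groups a peak at 400, where the size of the p-value is no longer resolved, stood next to peaks below it. The triple at chr12:110348856-110348952 on the plus strand had −log10 p-values of 74.6, 400 and 28.9 with enrichments of 3.99, 4.41 and 3.99, and lay 959 nt from a group of 12 peaks. The pair at chr19:55661943-55662350 on the plus strand had 400 and 73.5 with enrichments of 4.30 and 4.13. At chr17:28879351-28880189 on the minus strand the 3′ peak stood at 400 with an enrichment of 4.07, 277 nt from the nearer of the other two, which had 29.0 and 20.05 with enrichments of 3.10 and 3.08. The fifth, the 5′ peak of the pair at chr7:69761121-69761384 on the plus strand, had 400 and an enrichment of 3.996, next to a peak at 28.7 and 3.49.

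Some peaks of a class had identical values. Both the log2 fold enrichment and the −log10 p-value were identical to those of another member in 1305 members (17.8%), against 22.8% over the whole list, 26.6% within the single peaks, 6.17% within groups of 4 to 9 and 0% within groups of 10 or more. Matches were counted only within each of these sets. The sets differ in size, and the whole list also counts matches between classes, so the shares are not like for like.

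The distance to the next peaks outside the group varied widely. The nearest other peak or group on the same strand was a median of 10955 nt away, with 513 groups (16.6%) having one within 1000 nt, 1510 (49.0%) within 10000 nt and 646 (21.0%) none within 100000 nt. For single peaks the median was 15698 nt (44.6% within 10000 nt), for groups of 4 to 9 it was 11810 nt (47.7%) and for groups of 10 or more it was 8038 nt (54.5%). Of the 1510 groups with a neighbour within 10000 nt, the nearest was a single peak in 641 (42.5%), another group of 2 or 3 in 519 (34.4%), a group of 4 to 9 in 309 (20.5%) and a group of 10 or more in 41 (2.72%). Members whose run of groups at most 10000 nt apart held no group of 4 or more (6158 members) had a median log2 fold enrichment of 3.57 and a median −log10 p of 7.46. Those in a run with a group of 10 or more (183 members) had 3.65 and 12.1.

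Some small groups followed each other along a strand. When groups no more than 10000 nt apart were joined into runs, 2721 runs held a group of 2 or 3, and in 1573 (57.8%) it was the sole group. At least 2 such groups were present in 315 runs (11.6%) and at least 3 in 37. The run with the most, chosen after its values were seen, had 5 groups with 12 members and no other peak within 9142 nt at chr10:126974967-126984108 on the plus strand. From 5′ to 3′ its groups had log2 fold enrichments of 3.33 and 3.13, then 3.06, 4.80 and 4.42, then 5.72, 5.05 and 4.95, then 4.05 and 4.44, and last 3.12 and 3.17. The triple in the middle was the most enriched and both outer pairs were near the floor of the list, with 702 to 3102 nt between groups. A second run without larger groups, at chr10:31833522-31839031 on the minus strand, had 4 groups with 10 members between 3.04 and 4.62 in 5510 nt.

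Each group lies on 1 strand by the rule. A peak on the opposite strand lay within 500 nt of only 1 of the 3083 groups, and in 0 groups did peaks of both strands overlap. That group, a triple at chr1:201782288-201782855 on the minus strand with enrichments of 3.84, 3.98 and 4.38 along the chromosome, was followed by a plus-strand peak at chr1:201782927-201783026 with an enrichment of 3.81.

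The share of peaks in groups of 2 or 3 varied between chromosomes. It was highest on chromosome 13, at 179 of 475 peaks (37.7%, Wilson 95% confidence interval 33.4 to 42.1%), and on chromosome 18, at 205 of 550 (37.3%, 33.3 to 41.4%). It was lowest on chromosome 21, at 88 of 490 peaks (17.96%, 14.8 to 21.6%), and on chromosome 19, at 285 of 1183 (24.1%, 21.7 to 26.6%). Most other intervals included the 29.5% of the whole list, and the intervals treat neighbouring peaks as independent, which they are not. On chromosome 13 no peak lay in a group of 10 or more, whereas 18.8% of those on chromosome 21 did. The shares in small and in large groups did not always run in opposite order. Chromosome 22 had 18.7% of its peaks in groups of 10 or more and 27.9% in groups of 2 or 3. Chromosome 1 had 9.82% and 26.7%. A link between these shares was not tested. The enrichment of the members varied little, with chromosome medians from 3.48 on chromosome 22 to 3.65 on chromosome 8 (log2). A pair of members on a sequence assigned to chromosome 14, but without a position along it, had 4.004 and 3.17.

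**Figure D5:**
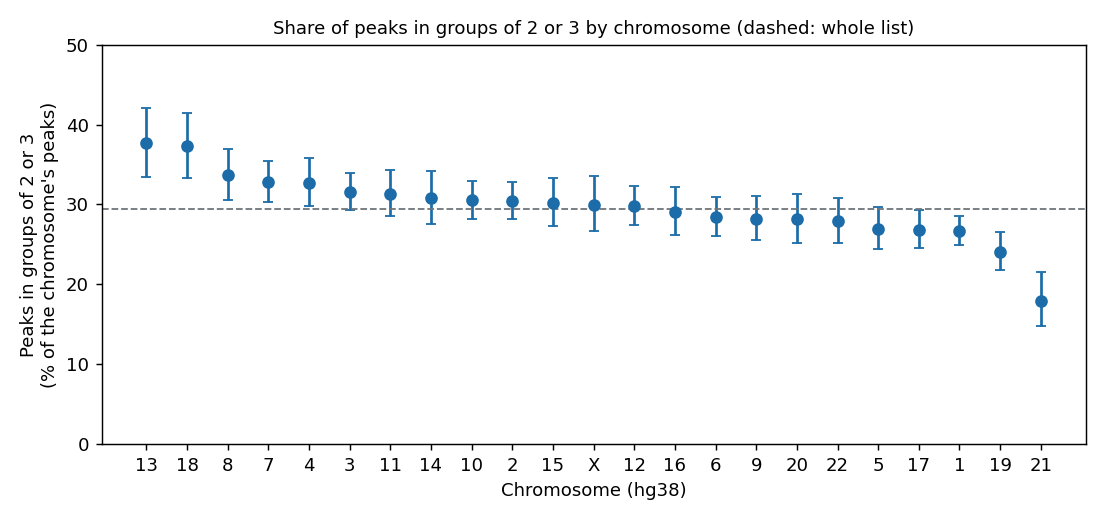
Peaks in groups of 2 or 3 as a percent of all peaks of the chromosome, in falling order, with Wilson 95% confidence intervals, and a dashed line at the 29.5% of the whole list. Chromosomes 13 and 18 stand at the top and chromosomes 19 and 21 at the bottom.

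Some gaps lay close to the joining distance, and the values of groups there were not compared with those of other groups. At that distance or less than 10 nt below it, 9 gaps lay inside groups of 2 or 3, and up to 10 nt above it 9 gaps bordered such a group. The latter include borders with single peaks and with larger groups, so the counts are of unlike sets of gaps. Gaps of exactly 500 nt were in the triple at chr12:106123700-106124546 (4.12, 3.91 and 3.23, minus strand) and in the pairs at chr3:193668559-193669278 (3.67 and 3.58, plus strand) and chr7:29881387-29882114 (3.90 and 3.40, plus strand). The closest gap outside was 502 nt on the plus strand of chromosome 3, between the last peak of a pair, ending at 184190171 with an enrichment of 3.53, and a single peak starting at 184190674 with 3.22.

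The same rule applied to the 7 peaks of the mouse TrkB-BAC minigene, from the same +Dox and No Dox libraries, gave 1 pair. Its abutting peaks, 51 and 44 nt wide, spanned 95 nt and had log2 fold enrichments of 4.13 and 3.89 with −log10 p-values of 21.9 and 15.6. Of the human members, 81.4% had a lower enrichment than the first and 70.2% than the second, and 90.9% and 82.9% had a lower −log10 p. The difference of 0.24 within the minigene pair was larger than that of 36.0% of the 559 human abutting pairs, and 1.34% of human pairs had a shorter span.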

How the data were processed

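RbFox1 eCLIP was measured in the T-REx-293 line described above. Per the study's methods, the authors trimmed the reads, left out those of repeats and rRNA, aligned the others with STAR to hg38 plus the minigene sequence, collapsed PCR duplicates by molecular identifier and used CLIPper to call peaks. The deposited log2 fold enrichment is a ratio of normalized read counts, and the deposited −log10 p-value comes from the authors' chi-square or Fisher test of reads, and ends at 400. The authors merged peaks over replicates, with settings not given in the sources used here. Peaks that abut count separately in the number of peaks per group.

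Python 3.11.15 with pandas 2.3.3 was used. Positions were converted to count from 1, and grouped by chromosome and strand at 500 nt. Figures used matplotlib 3.10.9 and intervals scipy 1.17.1. The grouping was tested on simulated data. Joining distances of 100 and 1000 nt, the stricter threshold, both strands together and joining abutting peaks first were tried. Named groups were the 5 triples and 5 pairs with the highest least enriched peak, the 5 most enriched members at a −log10 p of 400, the widest group and those at the joining distance. The narrowest group, the largest differences, the group near an opposite-strand peak and the runs were chosen after their values were seen. The members and rules were chosen with earlier results of these data known. No list per library was used, so depth, replicate error and any test between libraries are not given.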

Additional observations from a re-analysis of the deposited data

How the results depend on the processing

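Joining peaks at 100 nt or 1000 nt in place of 500 nt, or across both strands, or after uniting abutting peaks, left the numbers of members (7314, now 6880 to 8007) and groups (3083, now 2887 to 3454) of the same order. Under the stricter threshold the rule gave 2267 members in 977 groups. Of the 7314 members, 5792 did not pass it, 793 became single and 729 were still in a group of 2 or 3. The rest of the 2267 came from groups of 4 or more that lost peaks. The values under the stricter threshold therefore describe a mostly different set of peaks. The median log2 fold enrichment of members, 3.58, became 3.63 at 100 nt, 3.56 at 1000 nt and 4.36 under the stricter threshold. The median width, 88 nt, became 84, 89 and 85 nt, and the share of groups whose peaks all abut, 22.2%, became 35.7%, 19.5% and 29.5% under these 3 settings. Of the members at 500 nt, 5320 (72.7%) were still in a group of 2 or 3 at 100 nt and 6384 (87.3%) at 1000 nt.

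No paired analysis was possible because the list holds 1 value per peak after the merging of replicates, and for the same reason no library was left out. The GCATG and TGCATG searches at 3 window widths and the assignments to genes and gene regions were not run, as neither human sequence nor annotation was used. Depth is unknown, so the precision of single peaks, above all of narrow ones and those near the floor of 3, cannot be given.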
